A study of Rattus norvegicus with 9 samples.

Results

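The colony stimulating factors and their receptors were followed in cultured rat cardiac fibroblasts of 3 ages. The set was named gene by gene and held 6 of the 17337 genes in the count table: the ligands Csf1, Csf2 and Csf3 and the receptor chains Csf1r, Csf2ra and Csf3r. Total RNA was sequenced from 9 libraries, with 3 from fetuses at embryonic day 18, 3 from newborns at postnatal day 1 and 3 from adults of 7 weeks, all from hearts of Sprague Dawley rats. In every group the cells were at passage 0 and had been brought to confluency in flasks of DMEM with fetal bovine serum, antibiotics and ascorbic acid. The labels name no sort of the cells, so each library measured the RNA of all cells in its flask. They also do not say whether libraries of an age came from separate animals or cultures, so p-values measure only the spread between these libraries, which may be technical.

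Colony stimulating factors are secreted proteins that keep myeloid cells alive and drive their growth and maturation. CSF1, made largely by fibroblasts and other stromal cells, acts on monocytes and macrophages through CSF1R, a receptor tyrosine kinase that also binds IL34. CSF2 (GM-CSF) signals through a specific alpha chain, encoded by Csf2ra, joined to the common beta chain encoded by Csf2rb. CSF3 (G-CSF) signals through CSF3R, a receptor best known from neutrophils and their precursors. In the heart, resident macrophages carry CSF1R and lie next to the fibroblasts that supply CSF1.

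Sequences just before the transcription start were held in the RefSeq promoter table (assembly GRCr8) for 4 of the 6 members, Csf2, Csf1r, Csf2ra and Csf3r. The 250 bases before the start are printed for the 3 receptor genes, whose levels were all highest in the adult cultures. Each runs 5′ to 3′ on the gene's own strand, with motif matches in capitals. The Csf1r stretch lies at chr18:56834129-56834378 on the plus strand, the Csf2ra stretch at chr14:118118-118367 on the minus strand and the Csf3r stretch at chr5:143582970-143583219 on the plus strand.
Csf1r: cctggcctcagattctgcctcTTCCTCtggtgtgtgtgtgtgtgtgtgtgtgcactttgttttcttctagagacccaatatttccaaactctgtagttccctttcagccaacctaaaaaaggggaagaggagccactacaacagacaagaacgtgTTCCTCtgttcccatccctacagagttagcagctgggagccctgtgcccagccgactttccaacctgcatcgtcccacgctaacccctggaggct
Csf2ra: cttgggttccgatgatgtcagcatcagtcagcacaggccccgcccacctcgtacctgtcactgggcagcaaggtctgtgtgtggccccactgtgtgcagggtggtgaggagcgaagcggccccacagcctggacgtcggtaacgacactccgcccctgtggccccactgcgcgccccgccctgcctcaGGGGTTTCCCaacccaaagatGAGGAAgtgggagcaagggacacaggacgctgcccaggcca
Csf3r: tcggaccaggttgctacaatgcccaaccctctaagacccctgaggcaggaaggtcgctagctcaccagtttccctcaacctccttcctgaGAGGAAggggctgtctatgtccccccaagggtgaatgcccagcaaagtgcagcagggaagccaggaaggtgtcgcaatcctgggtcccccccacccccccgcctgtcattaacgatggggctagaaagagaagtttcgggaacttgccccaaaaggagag
The capitals mark the purine motif GAGGAA, of the type bound by the myeloid factor PU.1, and 1 NF-kappaB match. Both strands were searched, and a match on the other strand reads TTCCTC. Csf1r held GAGGAA at 2 places, beginning 229 and 95 bases before the start and both on the other strand. Csf2ra held it 41 bases and Csf3r 160 bases before the start, both on the gene's strand. The stretch of Csf2, which was not called, also held GAGGAA, on the other strand 77 bases before the start. The NF-kappaB match lay in Csf2ra 62 bases before the start, where its letters match on both strands, and it did not overlap GAGGAA. Among all 33469 promoters of the table, cut to the same length, 23.3% held GAGGAA and 6.33% the NF-kappaB motif. Neither TATAAA, searched as the TATA box (in 12.9% of all promoters), nor TGANTCA, searched as the AP-1 motif (in 6.34%), was found in the 3 stretches. The stretch of Csf2 held neither string. Other forms of the TATA box were not searched, so its absence is not shown. These matches are letters in a window and were not tested for binding.

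Depth and cell markers touch all that follows. Libraries held 13392825 to 22850491 assigned counts, and the adult ones (13392825 to 13810825) were the shallowest. Of 16 macrophage marker genes 15, all but Cx3cr1, had an adult range that lay wholly above all fetal and neonatal values. Their summed level was 10.2 to 60.8 counts per 1000000 assigned counts (CPM, scaled by TMM) in fetal, 154 to 171 in neonatal and 4538 to 6155 in adult libraries, and no marker was at 0 throughout. Fetal replicate 3 stood apart: it had 60.8 CPM of macrophage markers against at most 11.9 in the other fetal libraries, and 253 CPM of 7 epithelial markers against at most 30.9. The 10 fibroblast markers summed to 23654 to 50437 CPM in fetal, 67927 to 74193 in neonatal and 22236 to 29822 in adult libraries, most of it from Col1a1 and Col3a1, although Col1a2 stayed under 1 CPM in every library. The cause of the low Col1a2 count was not tested, so it is not read as absence of the transcript. Single fibroblast markers went other ways: Pdgfra, Tcf21 and Dcn were higher in each adult library than in all others, and Lum and Ddr2 were lower. The 9 cardiomyocyte markers in the table were all lower in every adult library, with sums of 6545 to 10024, 4837 to 5382 and 304 to 319 CPM at the 3 ages. Tnnt2 alone gave 303 to 316 CPM of the adult sums, and no other marker of that list exceeded 0.899 CPM in an adult library. The 5 dendritic cell markers in the table summed to 7.39 to 15.3 CPM over all libraries. Zbtb46 gave 6.07 to 14.6 CPM of this, and its adult range overlapped with the fetal one. Ccr7 (1.72 to 4.06 CPM), Batf3 (1.87 to 2.89) and Clec9a (0.217 to 0.689, or 3 to 9 counts) were higher in each adult library than in all others. Mast cell markers summed to at most 3.52 CPM, with Cpa3, Ms4a2 and Fcer1a at 0. Lymphocyte markers summed to at most 0.850 CPM, with Cd3d, Ms4a1 and Cd79b at 0. Endothelial markers summed to 17.2 to 20.7, 23.6 to 28.9 and 92.3 to 108 CPM at the 3 ages, with 68.6 to 72.5 CPM of the adult sums from Tie1 alone, while Kdr was lower in adult libraries (0.650 to 1.38 CPM) than in all others (2.38 to 5.90 CPM). In a bulk culture fewer cells of a type and less RNA per cell cannot be told apart. The part that macrophage transcripts had in the results below was not tested. For Csf1r and Csf2ra alone, the ratio of receptor counts to macrophage marker counts was compared among ages, which does not measure that part.

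Csf1 was the abundant ligand at every age and rose at each step, while Csf1r and Csf2ra rose mainly between birth and adulthood. Csf3r was detected at a low level, with most of its counts in the adult cultures, and Csf2 and Csf3 had at most 5 counts in any library. Between fetal and adult cells Csf1 rose 7.73-fold, Csf2ra 43.4-fold and Csf1r 81.8-fold. The plot of CPM by library shows all 6 genes.

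**Figure D1:**
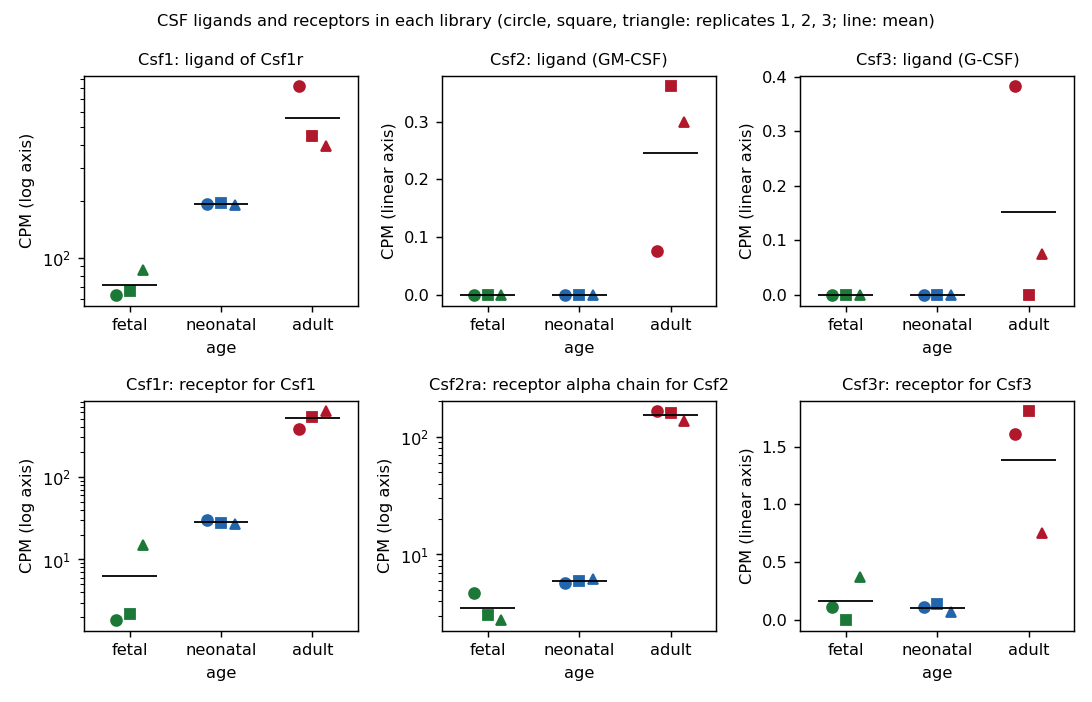
Level of the 6 genes in each of the 9 libraries (points, CPM after TMM scaling) by age, with lines at the mean of 3 libraries; each panel has its own axis. Csf1 climbs at each age, Csf1r and Csf2ra are far higher in the 3 adult libraries, and Csf2 and Csf3 were counted only in adult libraries.

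Csf1 (chromosome 2, 210522375 to 210550546, minus strand, rn6), the ligand for macrophages, was at 63.0, 66.0 and 85.6 CPM in fetal replicates 1 to 3. It was at 192, 196 and 192 CPM in the neonatal and 820.0, 447 and 393 CPM in the adult replicates. The 3 ages did not overlap, and adult replicate 1 was well above the other adult libraries. The mean was 71.6 ± 12.3 CPM in fetal, 193 ± 2.18 in neonatal and 553 ± 232 in adult cells (SD, n = 3). Csf1 rose by 1.43 on the log2 scale from fetal to neonatal cells (SE 0.258, edgeR adjusted p = 0.00355) and by 1.52 from neonatal to adult cells (SE 0.257, edgeR adjusted p = 0.000829). The whole span from fetal to adult was 2.95 (SE 0.271, edgeR adjusted p = 1.44e-05). Without adult replicate 1 the adult difference was 2.56 against fetal and 1.12 against neonatal cells, and both stayed past the threshold of adjusted p under 0.05.

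Csf2 (chromosome 10, 39602089 to 39604070, minus strand), the granulocyte-macrophage factor, had 0 counts in all 6 fetal and neonatal libraries and 1, 5 and 4 counts in the adult replicates. Csf3 (chromosome 10, 86616785 to 86619159, plus strand), the granulocyte factor, had 0 counts in the same 6 libraries and 5, 0 and 1 counts in the adult replicates. A count of 0 allows up to 3 counts per library, and 1 of the adult Csf2 libraries and 2 of the adult Csf3 libraries lay within that limit. Reads here carry no molecular identifiers, so this limit covers counting error only. Neither gene passed the filter on low counts, and no fold change is given for them. Fitted without the filter, Csf2 had an edgeR adjusted p of 0.0246 for adult against fetal and 0.0312 for adult against neonatal cells, but DESeq2 gave 0.0947 and 0.104. Csf3 gave 0.101 and 0.120 in the same edgeR fits and was not called.

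Csf1r (chromosome 18, 56431891 to 56458300, plus strand), the receptor for CSF1, was at 1.84, 2.16 and 14.9 CPM in the fetal replicates. It was at 29.8, 27.8 and 27.1 CPM in the neonatal and 377, 534 and 619.7 CPM in the adult replicates. No library of an age overlapped with another age, and the high fetal value was that of replicate 3, at 7.47 times the mean of the other fetal libraries. Csf1r rose by 6.35 on the log2 scale from fetal to adult cells (SE 0.721, edgeR adjusted p = 5.40e-05) and by 4.17, or 18.0-fold, from neonatal to adult cells (SE 0.636, edgeR adjusted p = 0.000446). From fetal to neonatal cells it rose by 2.18 (SE 0.644, edgeR adjusted p = 0.0290). Without fetal replicate 3 that difference was 3.81 (edgeR adjusted p = 0.000122) and the one between adult and fetal cells 7.98 (edgeR adjusted p = 6.43e-07). The neonatal call was lost without fetal replicate 1 or 2 (edgeR adjusted p = 0.0637 and 0.0687) and without neonatal replicate 1, 2 or 3 (0.0764, 0.0753 and 0.0697). It was also lost in a fit of the fetal and neonatal libraries alone (edgeR adjusted p = 0.0585).

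Csf2ra (chromosome 14, 1462358 to 1467264, plus strand), the alpha chain of the GM-CSF receptor, was at 4.75, 3.09 and 2.76 CPM in the fetal replicates. It was at 5.72, 5.99 and 6.21 CPM in the neonatal and 164, 159 and 136 CPM in the adult replicates. The ages did not overlap, the adult libraries lay far above the rest, and fetal replicate 3, which was high for Csf1r, was the lowest library for Csf2ra. Csf2ra rose by 0.763 on the log2 scale from fetal to neonatal cells (SE 0.183, edgeR adjusted p = 0.0116) and by 4.68, or 25.6-fold, from neonatal to adult cells (SE 0.169, edgeR adjusted p = 5.57e-08). The span from fetal to adult was 5.44 (SE 0.178, edgeR adjusted p = 1.74e-08).

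Csf3r (chromosome 5, 144031418 to 144050725, plus strand), the receptor for G-CSF, had 2, 0 and 7 counts in the fetal, 2, 3 and 1 in the neonatal and 21, 25 and 10 in the adult replicates. The adult libraries did not overlap with the others, and fetal and neonatal libraries did. Its mean was 0.160 ± 0.191 CPM in fetal, 0.105 ± 0.0376 in neonatal and 1.39 ± 0.562 in adult cells (SD, n = 3), and it passed the filter on low counts only through the adult libraries. It had to be high there to be tested, so its adult values are given as a description, with no p. Every neonatal library was at or below the floor of 3 counts. That floor was at most 0.194 CPM in a neonatal library, and the adult mean was 7.14-fold above it. This lower bound holds for the adult mean and takes the counts as observed. Adult replicate 3 alone was at 0.749 CPM. Against fetal cells the fitted log2 difference was 3.13 (SE 0.747). The fetal mean was 0.0540 CPM without replicate 3, and the fitted difference 4.63, which is no bound because those fetal libraries were at the floor. Of 11 neutrophil markers, S100a9, Mpo and Ltf were at 0 in every library, and of the list Camp and Mmp9 reached 1 CPM. That list summed to 0.176 to 0.584 CPM in fetal, 0.661 to 0.906 in neonatal and 23.7 to 143 in adult libraries. Mmp9 alone gave 142, 66.3 and 22.3 CPM of the adult sums, and no other marker of the list exceeded 1.01 CPM. The part of these transcripts in the Csf3r result was not tested.

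**Figure D2:**
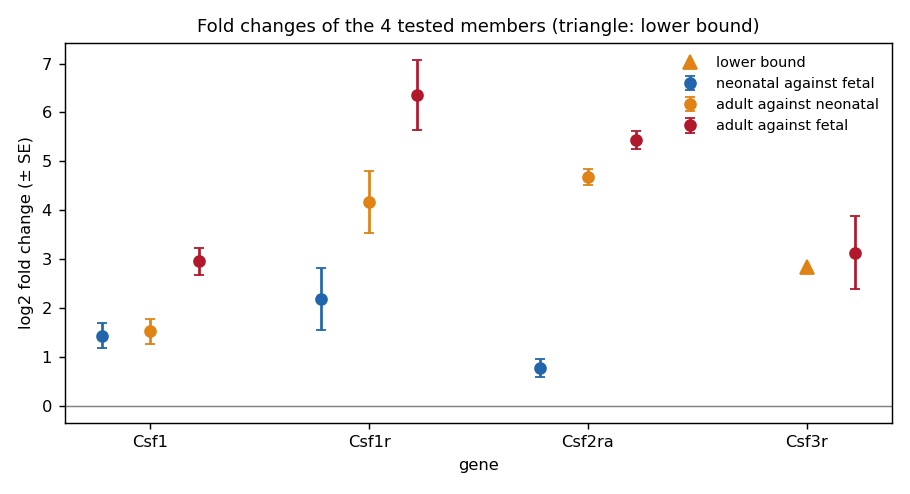
Log2 fold change of the 4 tested genes between each pair of ages, with 1 SE either side (edgeR, 9 libraries); the triangle is the lower bound for Csf3r against neonatal libraries at the floor, and its neonatal against fetal value is left out. The Csf1r and Csf2ra changes into adulthood lie above 4, and the Csf1 steps lie near 1.5.

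Set against all genes, change with age was common in these libraries. Csf1, Csf1r and Csf2ra had at least 34 counts in every library and are counted here, while Csf3r, which passed the filter through the adult libraries alone, is not. Between neonatal and fetal cells these 3 were called higher, beside 18.3% of all 11337 genes tested called higher and 36.3% called in either direction. Their libraries did not overlap, higher in neonatal cells, as held for 29.2% of all genes. Between adult and fetal cells the same 3 were called higher, where 34.9% of all genes were, and 70.5% in either direction, and none of the 3 overlapped, as for 35.9% of all genes in that direction. Between adult and neonatal cells they were again called higher, against 31.6% of all genes and 63.5% in either direction, and none overlapped, as for 37.6% of all genes in that direction. The middle of their 3 log2 differences was 1.43, 5.44 and 4.17 in these comparisons, while the medians of all genes were -0.01, -0.01 and -0.01. The comparisons share their libraries, and 3 members are not the whole set of 6. With library size alone as the scaling, the median of all genes moved to -0.176 between neonatal and fetal cells and the share of calls that were higher fell from 50.4% to 29.0%. Under that scaling Csf1, Csf1r and Csf2ra were still called higher, at 1.25, 1.96 and 0.602 on the log2 scale. A joint test over the ages called the same 3 members (largest edgeR adjusted p = 5.77e-05, for Csf1r), beside 77.6% of all genes.

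Levels of different genes were compared as CPM per kilobase of exon. In fetal cells Csf1 led with 18.1 ± 3.11 CPM per kilobase, and Csf2ra (2.54 ± 0.767) and Csf1r (1.71 ± 2.02) overlapped with each other. In neonatal cells the order was Csf1 (48.9 ± 0.552), Csf1r (7.64 ± 0.380) and Csf2ra (4.29 ± 0.176), with no overlap between neighbours. In adult cells Csf1 (140.0 ± 58.8), Csf1r (138.0 ± 33.2) and Csf2ra (109.9 ± 10.9) overlapped and their order is not resolved. Csf3r, Csf2 and Csf3 stayed below 1 CPM per kilobase in every library.

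Within a library the ratio of ligand to receptor is free of scaling between libraries. Csf1 per Csf1r, on the per-kilobase scale, was 32.1, 28.6 and 5.37 in the fetal, 6.03, 6.57 and 6.61 in the neonatal and 2.03, 0.783 and 0.594 in the adult replicates. Ligand transcript thus exceeded receptor transcript in every library except adult replicates 2 and 3. Among the adult libraries, replicate 1 had the most Csf1 and the least Csf1r.

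**Figure D3:**
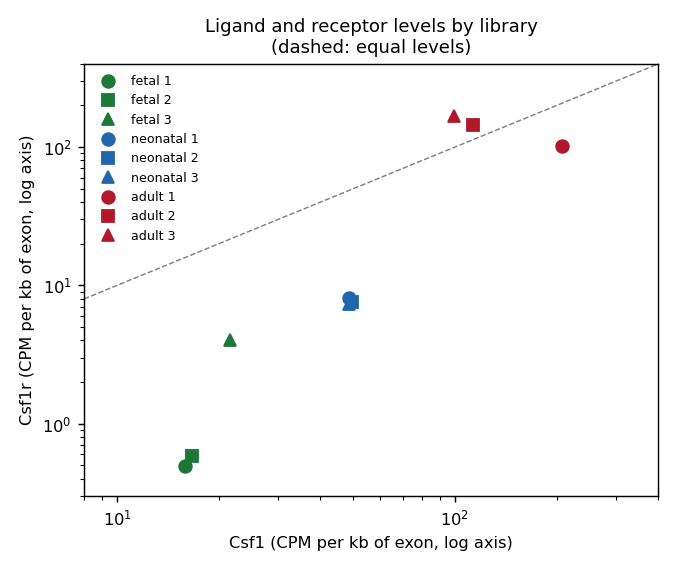
Csf1 (x axis) against Csf1r (y axis) in each library, both in CPM per kilobase of exon on log axes, coloured by age. Adult libraries lie closest to equal levels, and fetal replicate 3 lies apart from the other fetal libraries, at 4.04 for Csf1r against 0.497 and 0.584.

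The receptors were also set against the macrophage markers of the same library. Csf1r counts per 100 summed macrophage marker counts were 15.5, 21.1 and 24.6 in the fetal, 17.4, 17.9 and 17.6 in the neonatal and 8.31, 9.89 and 10.1 in the adult replicates. This ratio was lower in every adult library than in any other, although Csf1r itself was highest there. It differed among ages (exact permutation test of the F statistic over 1680 assignments, p = 0.0143, adjusted over 2 tests 0.0143, smallest possible 0.00357). Csf2ra per 100 marker counts was 40.0, 30.2 and 4.55 in the fetal, 3.34, 3.86 and 4.02 in the neonatal and 3.61, 2.95 and 2.20 in the adult replicates. Fetal replicates 1 and 2 were high, and neonatal and adult libraries overlapped (exact permutation p = 0.00714, adjusted over 2 tests 0.0143). Lyz2 made up 8.62% to 20.5% of the fetal marker counts and 38.0% to 42.8% of the neonatal and adult ones. Leaving it out ended both calls, with exact permutation p-values adjusted over 2 tests of 0.0714 for Csf1r and 0.0964 for Csf2ra. Without Lyz2 the Csf1r ratios were 17.3 to 30.9 in fetal, 28.1 to 29.2 in neonatal and 13.4 to 17.6 in adult libraries, so that fetal and adult libraries overlapped. Mertk was the largest marker in fetal replicates 1 and 2, with 79 of 220 and 81 of 232 marker counts. In adult libraries it had 98 to 123 of 59294 to 82185. The markers were thus a different mix in fetal libraries, and ratios without Mertk were not computed. Csf3r was not tested because 1 fetal library had 0 counts.

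**Figure D4:**
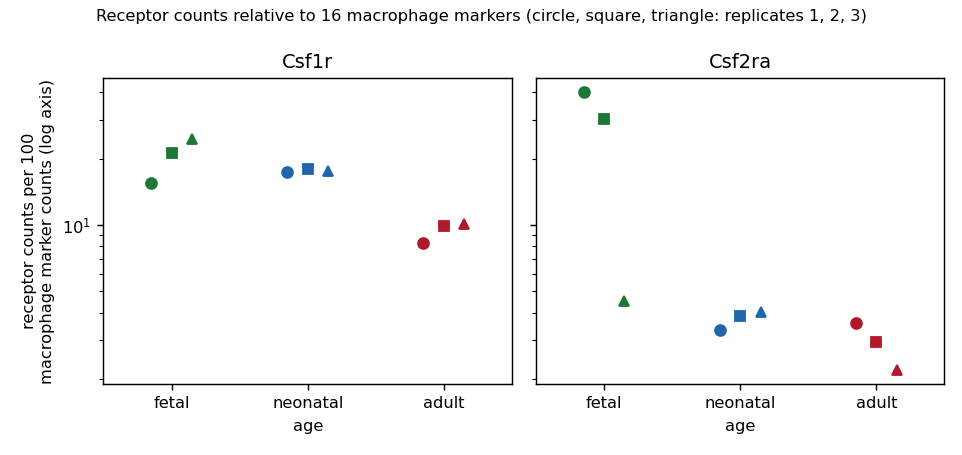
Counts of Csf1r and Csf2ra per 100 summed counts of the 16 macrophage markers in each library (points) by age, on a log axis. The adult libraries are the lowest for Csf1r (8.31 to 10.1), and fetal replicates 1 and 2 are the highest for Csf2ra (40.0 and 30.2).

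Relatives of the family were taken from a list of 10 genes. Il34, the second ligand of CSF1R, was at 0.486, 0.441 and 0.213 CPM in fetal, 1.16, 0.929 and 1.04 in neonatal and 15.2, 10.1 and 8.16 in adult replicates, with no overlap. It rose by 4.84 on the log2 scale from fetal to adult cells (edgeR adjusted p = 2.01e-06), and Csf1 stayed 17.0 to 155 times higher per kilobase in every library. Csf2rb, the beta chain that pairs with the Csf2ra product, was at 0.324, 0.176 and 1.86 CPM in fetal, 2.97, 3.21 and 4.34 in neonatal and 141, 102 and 88.2 in adult replicates. Like Csf1r it was high in fetal replicate 3, but the ages did not overlap. It rose by 7.17 from fetal to adult cells (edgeR adjusted p = 3.02e-06). On the per-kilobase scale Csf2rb was below Csf2ra in every library, at 0.0275 to 0.414 of its level.

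Il3ra, the alpha chain for interleukin 3, and Flt3lg, the ligand of the receptor tyrosine kinase FLT3, also rose between fetal and adult cells, by 2.67 and 1.72 on the log2 scale (edgeR adjusted p = 4.41e-06 and 1.66e-05). Kit, the stem cell factor receptor, and Kitlg, its ligand, fell instead. Kit went from a mean of 8.87 CPM in fetal to 3.40 in adult cells (log2 -1.38, edgeR adjusted p = 0.00747) and Kitlg from 48.1 to 13.9 CPM (log2 -1.80, edgeR adjusted p = 0.000154). Il3 and Flt3 had 1 count each over all libraries, and Il5 and Il5ra had 0. Of the 6 relatives tested, 4 were higher and 1 lower between neonatal and fetal cells, 4 higher and 2 lower between adult and fetal cells, and 4 higher and 1 lower between adult and neonatal cells. Of all genes tested, 36.3%, 70.5% and 63.5% were called in either direction in these comparisons. The relatives' median log2 differences were 0.752, 2.20 and 1.44. Around birth the 4 higher genes, Il34, Csf2rb, Il3ra and Flt3lg, became 2 without fetal replicate 2, without neonatal replicate 2 or 3, and in a fit of those ages alone. Kitlg was the lower gene between adult and neonatal cells (log2 -0.755, edgeR adjusted p = 0.0240), and this call was lost without neonatal replicate 2 or 3 and without adult replicate 2 or 3 (edgeR adjusted p = 0.0603, 0.0516, 0.0774 and 0.0660). Kit was called lower in that comparison without fetal replicate 3, without adult replicate 2 and in the fit of the 2 ages alone (edgeR adjusted p = 0.0178, 0.0204 and 0.0333), against 0.0776 with all libraries.

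Downstream of the receptors, 19 of 21 listed signalling genes (kinases, STAT factors and adaptors) were tested. Of these 12 were higher and 0 lower between neonatal and fetal cells, 17 higher and 0 lower between adult and fetal cells, and 15 higher and 1 lower between adult and neonatal cells. Of all genes 18.3%, 34.9% and 31.6% were called higher. The list's median log2 differences were 0.841, 2.31 and 1.53. Fes, a tyrosine kinase, rose from 1.34 ± 0.153 CPM in fetal to 55.7 ± 10.5 CPM in adult libraries (edgeR adjusted p = 4.22e-08; SD, n = 3). Between neonatal and adult cells Lyn, a kinase of the SRC family, rose by 2.46 on the log2 scale (edgeR adjusted p = 8.65e-08). Gab2, a docking adaptor, was the gene that was lower (log2 -0.693, edgeR adjusted p = 0.00168). Around birth Plcg2, a phospholipase, rose by 1.11 on the log2 scale (edgeR adjusted p = 0.000307). With library size alone as the scaling, the counts around birth were 7 higher and 1 lower. Around birth Tyk2, Stat3 and Ptpn6 also lost their calls without any 1 neonatal library, and Stat5a without neonatal replicate 1 or 2. Ptpn6 lost its call without fetal replicate 1 or 2, and Ptpn6 and Stat5a lost theirs in the fit of those ages alone. Inpp5d, Fgr and Tyrobp were instead called higher without fetal replicate 3.

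Feedback genes induced by these receptors were not called around birth, 0 of 7 tested in either direction by edgeR, although 2, Socs3 and Spry2, were called higher without adult replicate 1 (edgeR adjusted p = 0.0302 and 0.0139) and in the fit of those ages alone (0.0461 and 0.0268). Between adult and fetal cells 5 were higher and 1 lower, and the same numbers held between adult and neonatal cells. Socs1, counted as higher in each of these comparisons, passed the filter on low counts only through the adult libraries, so its calls are a description. Of all genes 36.3% were called in either direction around birth, 70.5% between adult and fetal cells and 63.5% between adult and neonatal cells. Socs3, an inhibitor of cytokine receptor signalling, was at 10.8 to 16.5 CPM in fetal and at 189, 107 and 90.4 CPM in the adult replicates (log2 3.16, edgeR adjusted p = 1.32e-05). Pim1, a kinase induced by STAT factors, was at 13.0 to 14.6 CPM in fetal and at 157, 76.9 and 68.4 CPM in the adult replicates (log2 2.88, edgeR adjusted p = 2.76e-05). Against neonatal cells Pim1 rose by 2.97 and Socs3 by 2.64 (edgeR adjusted p = 3.59e-05 and 5.09e-05). Both were highest in adult replicate 1, the library that was also highest for Csf1. Socs2, a further inhibitor of the family, fell by 1.28 on the log2 scale over the whole span (edgeR adjusted p = 0.00579). Between neonatal and adult cells it fell by 1.04 (edgeR adjusted p = 0.0187), a call that was lost without neonatal replicate 3 and without adult replicate 2 or 3 (edgeR adjusted p = 0.0638, 0.0713 and 0.0588).

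Of 11 listed transcription factors of myeloid cells, 10 were tested. Between adult and fetal cells 9 were higher and 0 lower, and between adult and neonatal cells 10 were higher, where 34.9% and 31.6% of all genes were. Cebpe, at or below 3 counts in every fetal and neonatal library, could pass the filter only through the adult libraries. The medians were 4.21 and 3.45, and 3.98 for the first with Cebpe, which was at the floor in fetal libraries, at its bound. Irf8, needed for monocyte and dendritic cell development, averaged 1.13 ± 0.153 CPM before birth, 1.25 ± 0.155 CPM in newborn and 26.5 ± 1.42 CPM in adult libraries (SD, n = 3), rises of 4.55 and 4.39 on the log2 scale to the adult level (edgeR adjusted p = 2.43e-08 and 5.24e-08). Irf5, an interferon regulatory factor of macrophages, rose by 3.93 and 2.77 (edgeR adjusted p = 2.27e-08 and 1.98e-07).

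Around birth 2 of these factors were higher and 1 lower, beside 18.3% of all genes called higher, with a median of 0.439 without Cebpe. The higher ones were Irf5 (log2 1.16, edgeR adjusted p = 0.000307) and Spi1, which encodes PU.1 (log2 2.03, edgeR adjusted p = 0.0264). Spi1 was at 0.324, 0.0441 and 1.28 CPM in the fetal and 2.31, 1.72 and 2.52 CPM in the neonatal replicates, again with fetal replicate 3 high. Its call was lost without fetal replicate 1 or any 1 neonatal library (edgeR adjusted p = 0.0529 to 0.0776) and in the fit of the 2 ages alone (0.0892), and 4 factors were higher without fetal replicate 3. Runx1, a general blood cell factor, was the lower gene, by -0.239 (edgeR adjusted p = 0.0281), and its call was lost without fetal replicate 1 (edgeR adjusted p = 0.0678) and without any 1 neonatal library (largest edgeR adjusted p = 0.114). The macrophage markers moved with these factors, as given above, and their part was not tested.

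**Figure D5:**
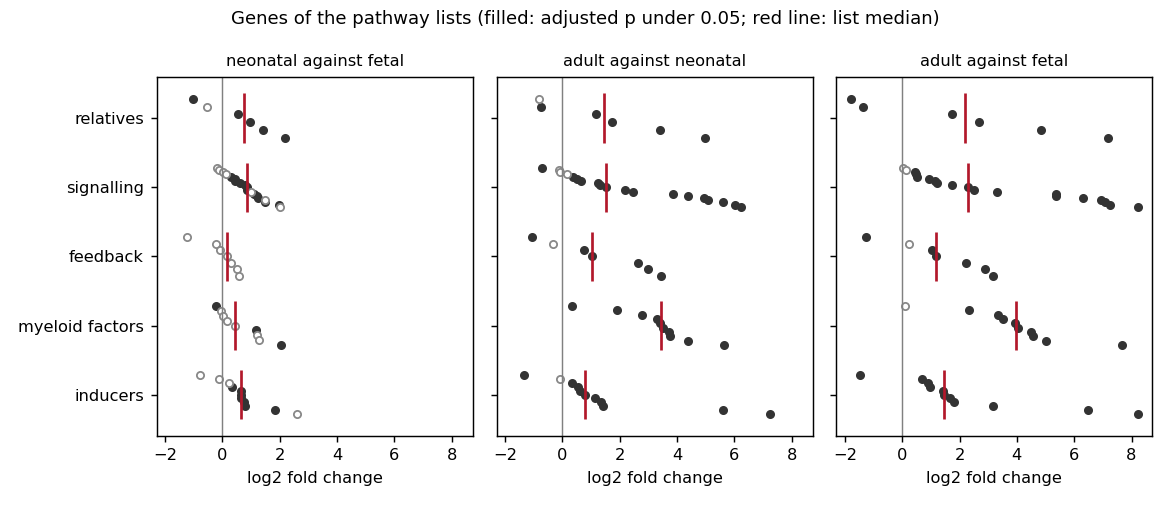
Log2 fold change of each tested gene (points) in the 5 lists of related genes, 1 panel per pair of ages, with a line at each list's median; Cebpe is drawn at its lower bound in the adult comparisons and left out of the first panel, neonatal against fetal. Il1a, Il1b and Socs1, like Cebpe, passed the filter only through the adult libraries. In the adult comparisons most points lie to the right of 0, while the feedback list sits around 0 between neonatal and fetal cells.

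Last, 13 genes of the signals that induce colony stimulating factors in stromal cells were listed, and 11 were tested. Of these 7 were higher and 0 lower between neonatal and fetal cells, 10 higher and 1 lower between adult and fetal cells, and 9 higher and 1 lower between adult and neonatal cells. The shares of all genes called higher were 18.3%, 34.9% and 31.6%. Il1a and Il1b, counted as higher in each adult comparison, passed the filter on low counts only through the adult libraries. They had to be high there to be tested, so their adult calls are a description and no result. The list's median log2 differences were 0.638, 1.44 and 0.804. Myd88, the adaptor of Toll-like and interleukin 1 receptors, and Nfkb2, a subunit of NF-kappaB, had the smallest adjusted p of the higher genes in adult against fetal cells, with log2 differences of 1.80 and 1.66 (edgeR adjusted p = 8.34e-07 and 1.10e-06). Il1rap, the accessory chain of the interleukin 1 receptor, was the lower gene, at 46.7 ± 1.57 CPM in fetal, 43.2 ± 2.28 in neonatal and 16.9 ± 2.65 in adult cells (log2 -1.47, edgeR adjusted p = 2.47e-06 for adult against fetal; SD, n = 3). Against neonatal cells Nfkb2 rose by 1.43, Myd88 by 1.14 and Il1rap fell by 1.35 (edgeR adjusted p = 4.44e-06, 2.11e-05 and 7.02e-06). Around birth Nfkb1 and Il17ra, the interleukin 17 receptor, had the smallest adjusted p, with log2 differences of 0.638 and 0.637 (edgeR adjusted p = 0.000518 and 0.00165). Tnf and Il17a did not pass the filter, and Tnf had 1 count in all.

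The adult libraries differed among themselves in the same genes. Il1a was at 47.1, 13.6 and 9.59 CPM, Il1b at 58.5, 13.9 and 23.1 CPM and Nr4a1, a factor induced early after stimulation, at 533, 144 and 155 CPM in adult replicates 1 to 3. Each was highest in adult replicate 1, as were Csf1, Csf2ra, Csf2rb, Socs3 and Pim1, while Csf1r was lowest there. Csf2ra differed little between adult replicates 1 and 2 (164 and 159 CPM). The summed macrophage markers were also lowest in adult replicate 1, at 4538 CPM against 5395 and 6155 CPM. Adult replicate 1 stood apart over the whole set of genes and not only in the genes named here. Its chi-square per degree of freedom was 26.9 against adult replicate 2 and 45.0 against adult replicate 3, and 6.98 held between adult replicates 2 and 3. Il1a, Il1b and Nr4a1 were singled out after their values were seen.

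For each tested member, the genes with the most similar course over the 9 libraries were found by Pearson correlation of log2 CPM, among 8943 or 8944 genes with at least 10 CPM at some age. Csf1 was most like Tgfbr2 (r = 0.996), Optn (0.994) and Asic1 (0.993). Csf1r was most like C1qb (1.00), Cybb (0.998) and C5ar1 (0.997), and C1qb is itself one of the macrophage markers. Csf2ra was most like Ap2s1 (0.999), Usf2 (0.999) and Snx8 (0.998), and Csf3r like Prkx (0.983), Sipa1l3 (0.980) and Uap1 (0.979). Csf3r passed the filter through the adult libraries alone and had at most 7 counts in any other library. Its likeness is therefore a description and no result. Among members, r was 0.941 between Csf1 and Csf1r and 0.907 between Csf1r and Csf2ra. These values describe libraries that fall into 3 ages, of which the adult ones are the shallowest, and carry no p.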

How the data were processed

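The deposited table held raw counts per gene, made by the authors with featureCounts 1.6.3 on rn6 without strand, per the file headers. The submitters' processing notes also name Trimmomatic 0.39, STAR 2.5.2b and DESeq2. A second deposited table gave a normalized signal for 12786 genes, in which each library's counts had been divided by a single size factor (checked to a tolerance of 0.01%), and only those factors were used. The exons of no member overlapped another gene in the annotation.

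The ages were compared by edgeR 4.0.16 under R 4.3.3 (filterByExpr, 11337 genes kept, TMM, robust quasi-likelihood, age as the only term, 9 libraries, Benjamini-Hochberg over all genes tested, threshold 0.05). Receptor ratios were compared by exact permutation tests of an F statistic, which has no direction. The fits were also run on simulated counts with no outlying library, which does not test the calls made here. Alternatives were other scalings, DESeq2 1.42.0, limma 3.58.1 (voom), no filter, a replicate block, leaving out each library, and fits of 2 ages. No pair of libraries of an age agreed within counting noise (chi-square per degree of freedom 2.09 to 102). All 6 members are named; of each list, the 2 genes with the smallest adjusted p in each direction, every relative, and the 3 genes most like each tested member. The values of 2 genes that this rule names are not reported here. The members and lists were chosen with earlier results of these data known.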

Additional observations from a re-analysis of the deposited data

How the results depend on the processing

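Of the results for the members and for all genes, 341 kept their side of the threshold or, for counts, their size over the alternatives, 10 lost the threshold, 3 counts moved by more than 1.5 times and no called difference changed sign. The 341 include Csf3r in adult against fetal and in adult against neonatal cells (17 alternatives each) and in the joint test (16). Csf3r had to be high in adult libraries to be tested, so these do not show that a result held. Csf3r between neonatal and fetal cells, which was not called, ran from -1.10 to 1.05 on the log2 scale and so changed sign. Without 1 library, Csf1r between neonatal and fetal cells ran from 1.75 to 3.81 on the log2 scale, and it was 2.18 in the fit of those ages alone (edgeR adjusted p = 0.0585). Without 1 library the number of genes called between neonatal and fetal cells ran from 2476 to 4679, against 4114. Exact permutation p-values for the receptor ratios were 0.0357 for Csf1r and 0.0964 for Csf2ra without Lyz2, and 0.00357 to 0.0286 for Csf1r and 0.00714 to 0.05 for Csf2ra without 1 library. The cause of these changes was not tested. With the replicate block, 3713, 7801 and 6985 genes were called in the 3 comparisons, Csf1r between neonatal and fetal cells was 2.51, and no call of a member changed. Of the genes named around birth, Runx1 and Flt3lg were not called with it (edgeR adjusted p = 0.0537 and 0.0603). Libraries of the same number correlated at -0.0649 to 0.0521 in their deviations from the age means, so the numbers were not taken as pairs. Depth limits Csf2, Csf3 and Csf3r, which had at most 25 counts in a library.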
